A study of Mus musculus with 16 samples.

Results

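Transcripts of 4 genes of the hyperpolarization-activated current, Ih, were followed on tagged polysomes of prelimbic projection neurons. The members were Hcn2, Hcn3 and Hcn4, which encode pore subunits of HCN (hyperpolarization-activated cyclic nucleotide-gated) channels, and Pex5l, which encodes TRIP8b, the auxiliary subunit of these channels in brain. They were chosen by name, and all 4 were found once each among the 39017 gene rows of every deposited table. All 4 carried an adjusted p in each table, so that none was lost to the authors' filter on low values.

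The series used C57BL/6J mice. The prelimbic cortex (PL) received the virus AAV-IV-GFPL10, which encodes a GFP-tagged ribosomal protein under control of Cre, and 1 target of its axons received CAV-Cre, a retrograde canine adenovirus. That target was the nucleus accumbens (PL-NAc), the ventral tegmental area (PL-VTA) or the basolateral amygdala (PL-BLA). Polysomes pulled down with anti-GFP beads gave the immunoprecipitate (IP), and total RNA of the PL gave the Input. Per the labels, both viruses were used in every group, Input included. There were 3 IP and 3 Input libraries for PL-NAc, 3 and 3 for PL-BLA, and 2 and 2 for PL-VTA, 16 in all. Neither the promoter of the tag nor the age or any pooling of the mice is stated in the labels, so p-values cover the spread between these libraries alone, and that spread may be technical.

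HCN channels open when the membrane hyperpolarizes and carry a depolarizing cation current. In cortical pyramidal neurons much of this current lies in the dendrites, where it shortens synaptic potentials and sets the resting potential and resonance. Layer 5 neurons with axons to the brainstem and midbrain (extratelencephalic) are known for a larger Ih than those whose axons stay within the telencephalon (intratelencephalic). Cyclic AMP binds a domain in the cytoplasmic tail of the channel and eases opening, while TRIP8b binds the same domain and the end of the tail, and controls both gating and the number of channels at the surface.

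The 3 pore genes share their selectivity filter and differ more toward the end of the tail that TRIP8b contacts, though Hcn2 and Hcn4 share their last 3 residues. Both stretches are shown from the GENCODE M21 coding sequences on GRCm38. Around the filter, with the 5 filter codons in capitals, the coding strands read:
Hcn2: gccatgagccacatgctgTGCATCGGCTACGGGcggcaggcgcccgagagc
Hcn3: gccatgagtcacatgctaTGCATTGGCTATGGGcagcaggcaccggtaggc
Hcn4: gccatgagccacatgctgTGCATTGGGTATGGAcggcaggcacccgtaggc

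Over these 51 bases, 41 were the same in Hcn2 and Hcn3, 43 in Hcn2 and Hcn4, and 45 in Hcn3 and Hcn4. The end of each coding sequence, with the last 3 codons and the stop in capitals, reads:
Hcn2: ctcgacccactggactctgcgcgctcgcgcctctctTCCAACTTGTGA
Hcn3: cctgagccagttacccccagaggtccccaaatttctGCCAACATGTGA
Hcn4: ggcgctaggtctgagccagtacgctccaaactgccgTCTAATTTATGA

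The last 3 codons of Hcn2 and Hcn4 encode the same residues through different codons, and those of Hcn3 share only the middle residue with them. Among the last 48 bases, 26 were the same in Hcn2 and Hcn3, 23 in Hcn2 and Hcn4, and 19 in Hcn3 and Hcn4. On the same strand, no stretch of 50 bases in any annotated transcript of the 4 genes was found in a transcript of another gene. Opposite strands were not compared. Exons of Pex5l overlap opposite-strand genes over 340 and 24 bases, and the overlap of Hcn3 is given below.

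Per length, Hcn2 and Pex5l were the abundant members, Hcn3 was intermediate and Hcn4 was rare. No value per library was used here, so IP and Input levels were derived from the authors' mean normalized count and fold change, on the assumption that the mean is the average of both groups. In PL-NAc, Hcn2 stood at 355 normalized counts per kb of exon in the IP and 434 in the Input. The level of Hcn3 in the same table was 73.8 per kb in the IP and 51.3 in the Input, and that of Hcn4 was 4.51 and 4.75. Pex5l was at 315 per kb in the IP and 315 in the Input. Hcn2 thus exceeded Hcn3 by 4.80-fold in the IP and 8.46-fold in the Input of PL-NAc, on the level per kb of exon.

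The same order held in PL-BLA, with 359 and 499 per kb of exon for Hcn2, 307 and 336 for Pex5l, 79.8 and 50.2 for Hcn3, and 5.50 and 5.20 for Hcn4, the IP first and the Input second in each pair. The Hcn2 level was 4.50 times that of Hcn3 in the PL-BLA IP and 9.93 times in its Input. In PL-VTA the levels were 414 and 491 for Hcn2, 58.2 and 51.9 for Hcn3, and 2.48 and 3.37 for Hcn4, in the same order of IP and Input. Pex5l, at 502 per kb in the PL-VTA IP and 377 in its Input, stood above Hcn2 in this IP and below it in every other group. That order rests on the length used, because the annotated exons of Pex5l span 8846 bases with a coding sequence of 1953, against 3195 and 2592 bases for Hcn2. Per kb of coding sequence Pex5l exceeded Hcn2 in every group, by 3.26-fold in the IP and 2.67-fold in the Input of PL-NAc, 3.14-fold and 2.47-fold in PL-BLA, and 4.45-fold and 2.82-fold in PL-VTA. These levels carry no error of their own, since the spread of single libraries is not in the tables.

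**Figure D1:**
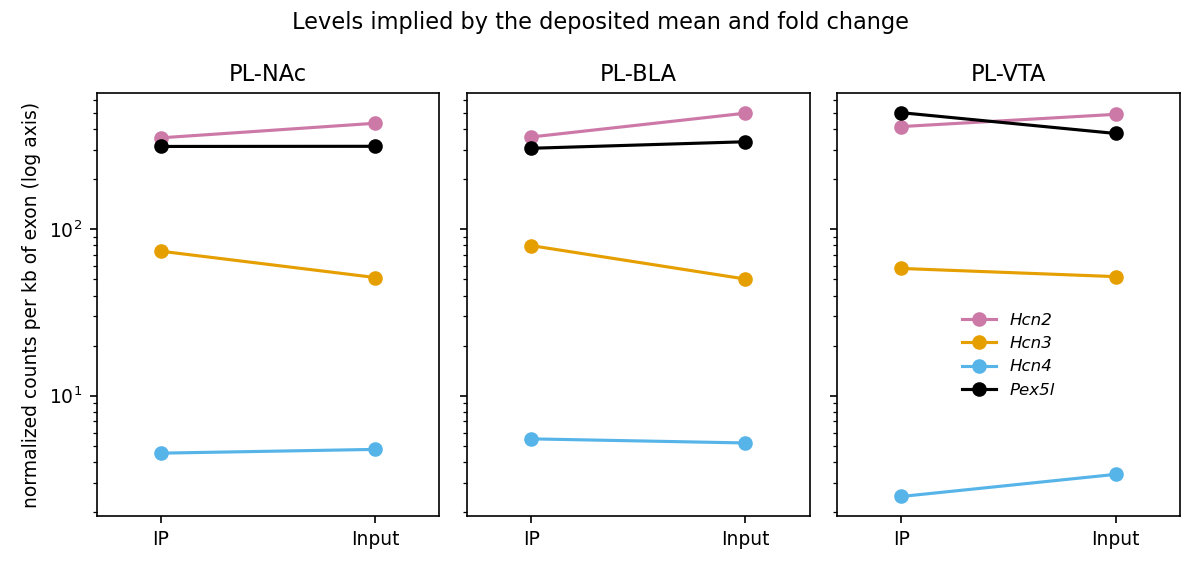
Normalized counts per kb of exon (log axis) in IP and Input of each projection, derived from the authors' mean and fold change; each line joins the 2 values of 1 gene, with no error shown. Hcn2 and Pex5l lie between 307 and 502, Hcn3 between 50.2 and 79.8, and Hcn4 between 2.48 and 5.50.

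Of the pore subunit genes, 2 differed from Input, in opposite directions. Hcn2 was lower and Hcn3 higher in the IP of PL-NAc and of PL-BLA, while neither passed in PL-VTA. Hcn4 and Pex5l passed in none of the 3. Enrichment is given below as log2 of IP over Input, with the standard error (SE) that the authors' DESeq2 model gave. A gene was called at an adjusted p under 0.05. In PL-NAc 1 member was higher, 1 lower and 2 not called, where 43.1% of all 17998 tested genes were called, 21.4% higher and 21.7% lower. The counts were the same in PL-BLA, where 41% of 17668 genes were called, 20.8% higher and 20.2% lower. No member was called in PL-VTA, where 21.5% of 15440 genes were, 11% higher and 10.5% lower. The called share of the members was thus near the background in PL-NAc and PL-BLA, and these counts are no result about the 4 genes.

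Hcn2 (ENSMUSG00000020331, chromosome 10, 79716634 to 79736108, plus strand, GRCm38) encodes a subunit with a strong response to cyclic AMP and wide expression in brain. In the authors' deposited table its fold change was -0.29 (SE 0.09, adjusted p 0.00325 by DESeq2) in PL-NAc, or 81.8% of Input, at a mean of 1260 normalized counts. In PL-BLA it was -0.48 (SE 0.10, adjusted p 1.6e-05 by DESeq2) in the authors' deposited table, or 71.9% of Input, at a mean of 1370. In PL-VTA it was -0.24 (SE 0.17, adjusted p 0.360 by DESeq2) in the authors' deposited table, with a 95% interval of -0.58 to 0.10 and a mean of 1446. The estimate was thus negative in all 3 projections, and the inverse-variance mean was -0.35 with a 95% interval of -0.48 to -0.23, or 78.2% of Input. The fold change of Hcn2 was above that of 33.1%, 23.2% and 30.7% of tested genes, with the projections in that order.

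Transcripts of other cell types of the tissue were mostly lower in the same IP libraries. All 16 oligodendrocyte markers were lower in each projection, and their summed level in the IP was 16.8% of Input in PL-NAc, 25.0% for PL-BLA and 24.0% in PL-VTA. Inhibitory neuron markers were lower in 18 of 20, 18 of 20 and 14 of 19 cases, with sums at 38.9%, 46.7% and 44.5% of Input. In PL-NAc 1 inhibitory marker was higher. Astrocyte markers were lower in 14, 13 and 14 of 14 cases, with sums at 32.6%, 51.3% and 42.0%, and microglial markers in 14, 13 and 12 of 14, with sums at 22.7%, 36.9% and 34.7%. No marker of these lists was at 0 in any table. The sign of the fold changes was read from such glial transcripts, so their fall is no finding. Among excitatory neuron markers 10 of 15 were higher and 2 lower in PL-NAc, 10 and 2 in PL-BLA, and 3 and 3 in PL-VTA, with medians of 0.52, 0.46 and 0.16. The part of these cells in the values of the 4 genes was not tested, and in bulk RNA a different share of cells cannot be told apart from a different amount of RNA per cell.

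Set against the median of the excitatory markers instead of the authors' scaling, Hcn2 stood at -0.81 in PL-NAc, -0.93 for PL-BLA and -0.40 in PL-VTA. The first 2 passed on that scale (adjusted p 8.0e-19 and 5.5e-19, Wald z with Benjamini-Hochberg adjustment over all tested genes), and the third did not (0.0860). On the same scale 10672 of 17998 tested genes were lower in PL-NAc and 9505 of 17668 in PL-BLA, so most genes shared that call. These p-values leave out the error of the marker median.

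Hcn3 (ENSMUSG00000028051, chromosome 3, 89146074 to 89160196, minus strand) encodes the subunit with the weakest response to cyclic AMP in mouse. In the authors' deposited table it was 0.52 (SE 0.16, adjusted p 0.00320 by DESeq2) in PL-NAc, or 1.44-fold, at a mean of 259.9 normalized counts. In PL-BLA it was 0.67 (SE 0.17, adjusted p 0.000503 by DESeq2) in the authors' deposited table, or 1.59-fold, at a mean of 270.03. In PL-VTA it was 0.16 (SE 0.28, adjusted p 0.761 by DESeq2) in the authors' deposited table, with a 95% interval of -0.39 to 0.71 and a mean of 229. The inverse-variance mean over the projections was 0.53, with a 95% interval of 0.31 to 0.74, or 1.44-fold. The fold change of Hcn3 was above that of 88.6%, 94.2% and 63.2% of tested genes, in the same order.

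Set against the excitatory markers, Hcn3 lost both calls. Relative to their median it was 0.01 in PL-NAc (adjusted p 0.966) and 0.21 in PL-BLA (adjusted p 0.295) by the Wald z with Benjamini-Hochberg adjustment. At its 3' end the gene overlaps Pklr on the opposite strand over 711 exonic bases, and the library chemistry does not mark strand. Pklr, a pyruvate kinase gene of liver and red blood cells, had a mean of 0.140 normalized counts in PL-NAc and 0.326 in PL-BLA and was at 0 in PL-VTA, in the authors' deposited tables. The gap between both called subunits, Hcn3 minus Hcn2 in log2 fold change, was 0.82 in PL-NAc, 1.14 for PL-BLA and 0.41 in PL-VTA. It is given without a test because both genes were measured in the same libraries.

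**Figure D2:**
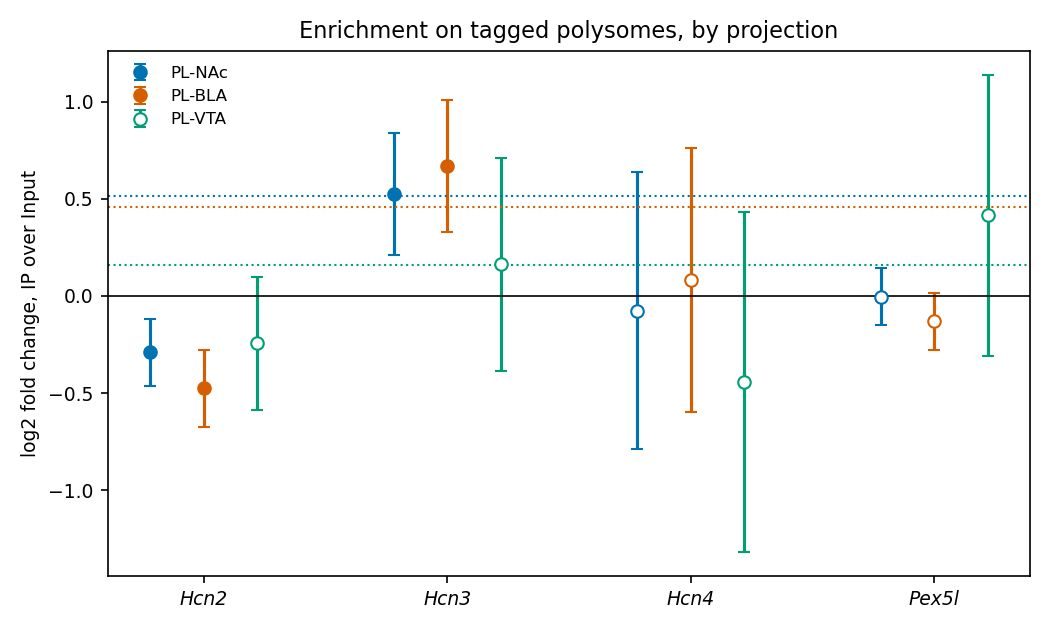
Log2 fold change of IP over Input (points) with 95% intervals (bars) for each gene in PL-NAc, PL-BLA and PL-VTA; filled points passed at an adjusted p under 0.05, and dotted lines mark the median of the excitatory markers in each table. Hcn2 lies under 0 and Hcn3 over 0 in all 3 projections, with filled points in PL-NAc and PL-BLA.

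Hcn4 (ENSMUSG00000032338, chromosome 9, 58823412 to 58863175, plus strand) encodes the main subunit of the sinoatrial pacemaker of the heart, and is found in brain in regions such as the thalamus. Its level was low, with mean normalized counts of 28.3 in PL-NAc, 32.7 for PL-BLA and 17.9 in PL-VTA in the authors' deposited tables. Its fold change was -0.07 (SE 0.36), 0.08 (SE 0.35) and -0.44 (SE 0.45) in the same order of projections in the authors' deposited tables. The adjusted p were 0.897, 0.881 and 0.562 by DESeq2. The interval ran from -1.32 to 0.43 in PL-VTA, where the SE was close to the highest of any gene in the table, 0.451. For PL-NAc and PL-BLA the intervals of Hcn4 were -0.79 to 0.64 and -0.60 to 0.76. The deposited fold changes appear shrunken toward 0, so these intervals do not bound the changes that the libraries could detect. Per kb of exon the Hcn2 level was 78.6 times that of Hcn4 in the PL-NAc IP and 91.3 times in its Input.

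Pex5l (ENSMUSG00000027674, chromosome 3, 32949408 to 33143247, minus strand) had the highest mean of the members, 2787, 2843 and 3887 normalized counts in PL-NAc, PL-BLA and PL-VTA in the authors' deposited tables. The fold change was -0.003 (SE 0.07, adjusted p 0.980 by DESeq2) in PL-NAc in the authors' deposited table, with an interval of -0.15 to 0.14. In PL-BLA it was -0.13 (SE 0.08, adjusted p 0.162 by DESeq2) in the authors' deposited table, with an interval of -0.28 to 0.02. These intervals lie below the Hcn3 values in the same projections. Centring shifts every gene of a projection alike, so that order is the same relative to the excitatory markers, where Pex5l lies farther from 0 than Hcn3. On the authors' scaling the IP of these neurons held 99.8% and 91.4% of the Input level of Pex5l.

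In PL-VTA the fold change of Pex5l was 0.41 (SE 0.37, adjusted p 0.494 by DESeq2) in the authors' deposited table, or 1.33-fold, with an interval of -0.31 to 1.14. Among the 440 genes with a mean within 20% of that of Pex5l the median SE was 0.139, and the SE of Pex5l was higher than that of 98.9% of them. No value per library was used here, so the share of single PL-VTA libraries in this SE was not tested. Centring moved the calls of Pex5l in the other projections, to -0.19 in PL-BLA relative to all genes with a mean of at least 50 (adjusted p 0.0362). Relative to the excitatory markers it was -0.52 in PL-NAc and -0.59 in PL-BLA (adjusted p 2.3e-11 and 6.9e-14, Wald z with Benjamini-Hochberg), and 0.26 in PL-VTA (0.710). Here too the p-values leave out the error of the marker median, and most tested genes were lower on that scale in PL-NAc and PL-BLA. Pex5l has 12 annotated transcripts, 9 of them coding, and its splice forms are known to act differently on HCN channels. A count per gene adds them together.

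**Figure D3:**
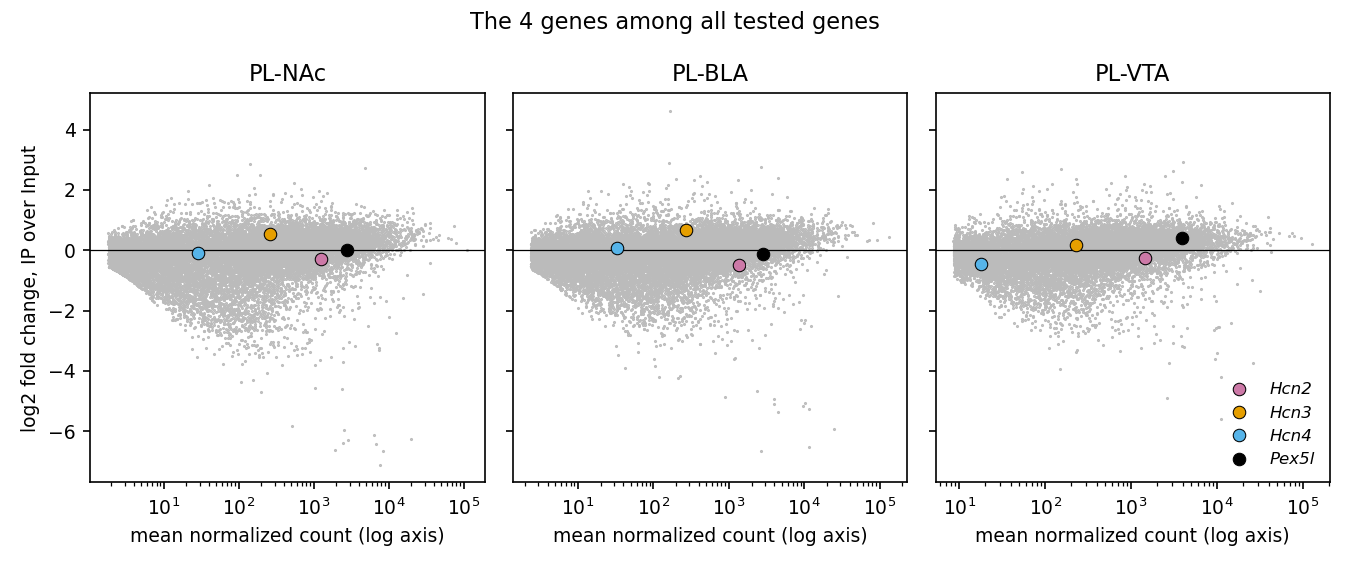
Log2 fold change of IP over Input against mean normalized count (log axis) for every tested gene (grey) and the 4 genes (coloured) in each projection. All 4 lie inside the cloud of tested genes, with Pex5l at the high end of abundance and Hcn4 at the low end.

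The design also asks whether enrichment differed between projections, for which each difference of log2 fold changes was tested over all genes (Wald z with Benjamini-Hochberg adjustment). None of the 12 differences among the 4 genes and 3 pairs passed, and none had an unadjusted p under 0.05. Of all genes, 1.55% passed for PL-NAc minus PL-BLA, 3.36% for PL-NAc minus PL-VTA and 4.61% for PL-BLA minus PL-VTA. A single test across the 3 projections (Cochran Q) passed for 5.71% of 15425 genes and for none of the 4, and none of the 4 had an unadjusted p under 0.05 in it. The adjusted p of that test was 0.883 for Hcn2, 0.883 for Hcn3, 0.99987 for Hcn4 and 0.772 for Pex5l.

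The intervals leave room for differences of some size in most pairs, and rest on fold changes that appear shrunken toward 0. For PL-NAc minus PL-BLA they were -0.08 to 0.45 for Hcn2, -0.60 to 0.32 for Hcn3 and -0.08 to 0.34 for Pex5l. Against PL-VTA, which had 2 libraries in each group, they were wider. Hcn3 differed by 0.50 between PL-BLA and PL-VTA (interval -0.14 to 1.15, adjusted p 0.716), and by 0.36 between PL-NAc and PL-VTA (-0.27 to 0.99, adjusted p 0.913). Pex5l differed by -0.55 between PL-BLA and PL-VTA (-1.28 to 0.19, adjusted p 0.767) and by -0.42 between PL-NAc and PL-VTA (-1.16 to 0.32, adjusted p 0.916). For Hcn2 the values were -0.05 for PL-NAc minus PL-VTA (-0.43 to 0.34) and -0.23 for PL-BLA minus PL-VTA (-0.63 to 0.16). Hcn4 intervals were the widest, up to -0.76 to 1.49 for PL-NAc minus PL-VTA. Relative to the excitatory markers, PL-NAc minus PL-VTA and PL-BLA minus PL-VTA were -0.41 and -0.53 for Hcn2, and -0.78 and -0.85 for Pex5l. The adjusted p were 0.133 and 0.0693 for Hcn2, and 0.136 and 0.138 for Pex5l (Wald z with Benjamini-Hochberg), without the error of the marker median. Hcn3, at 0.003 and 0.20, and Hcn4, at 0.01 and 0.22, moved toward 0 on that scale and were not called.

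**Figure D4:**
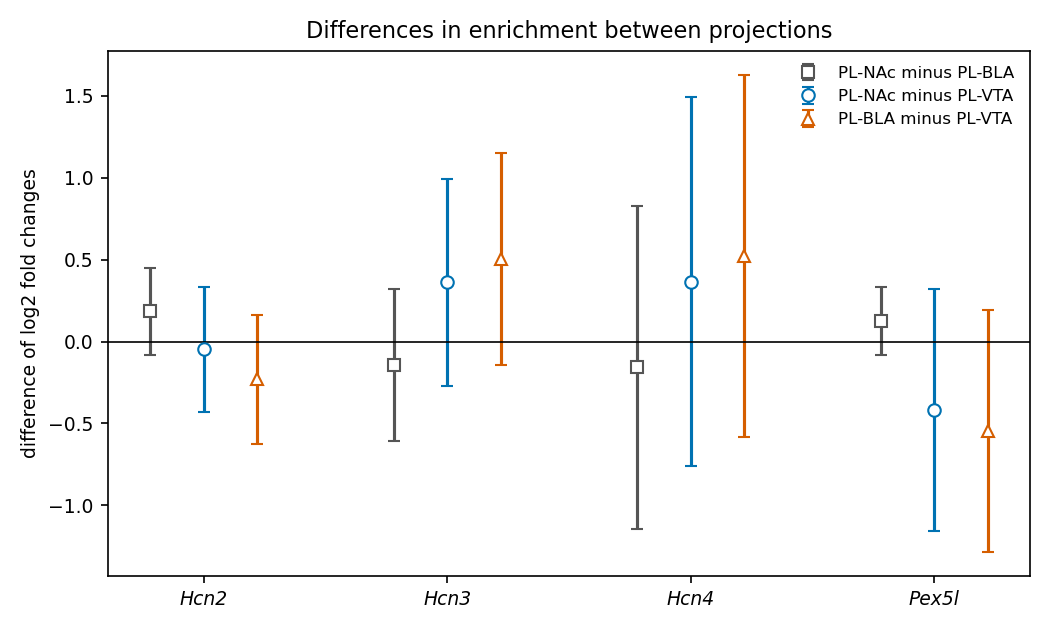
Difference of the log2 fold changes of 2 projections (points) with 95% intervals (bars) for each gene and pair; open symbols did not pass. Every interval includes 0, and those with PL-VTA are wider than that of PL-NAc minus PL-BLA for the same gene.

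Markers of layer 5 classes differed between the same tables, in both directions. Of 16 extratelencephalic markers 6 were higher and 4 lower in the IP of PL-NAc, 5 higher and 8 lower in that of PL-BLA, and 13 higher with none lower in that of PL-VTA. Fezf2, which specifies subcerebral projection neurons, was 1.57 (SE 0.08) in PL-NAc, 0.84 (SE 0.10) in PL-BLA and 2.94 (SE 0.15) in PL-VTA in the authors' deposited tables. Pou3f1, a transcription factor gene, was -0.55 (SE 0.11) in PL-NAc, -1.65 (SE 0.13) in PL-BLA and 1.89 (SE 0.14) in PL-VTA in the authors' deposited tables. Bcl11b, which encodes the regulator CTIP2 of subcerebral neurons, was -0.28 (SE 0.09), -1.09 (SE 0.09) and 1.16 (SE 0.14) in the same order in the authors' deposited tables. The medians of the list were -0.01, -0.38 and 1.43. Of the 16 markers, 12 passed the test of the difference for PL-NAc minus PL-VTA and 14 for PL-BLA minus PL-VTA, all lower than in PL-VTA, and 7 passed for PL-NAc minus PL-BLA, all higher in PL-NAc. Intratelencephalic markers had 5 higher and 2 lower of 10 in PL-NAc, 7 and 1 in PL-BLA, and 3 and 4 in PL-VTA. Of these 10, 6 passed for PL-NAc minus PL-VTA and 6 for PL-BLA minus PL-VTA, 4 of them lower in PL-VTA each time and 2, Cdh13 and Fam19a1, higher in PL-VTA, while 1 (Cdh13) passed for PL-NAc minus PL-BLA and was higher in PL-NAc. The part of these classes in the values of the 4 genes was not tested. The lists were drawn up with earlier results of the same data known, and so are no independent evidence of their direction.

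Proteins other than TRIP8b that bind or regulate HCN channels went both ways. Of 11 tested genes of this kind, 5 rose and 3 fell in PL-NAc (median 0.12, against -0.03 over all tested genes), and 5 and 3 in PL-BLA (median 0.19, against -0.02). In PL-VTA none was higher and 3 were lower, with a median of -0.29 against 0.02. Of all tested genes 43.1%, 41% and 21.5% were called in PL-NAc, PL-BLA and PL-VTA. The scaffold gene Grasp, which encodes tamalin, was 0.58 (SE 0.08) in PL-NAc and 0.75 (SE 0.08) in PL-BLA in the authors' deposited tables. Vapa, an endoplasmic reticulum membrane protein, was 0.20 (SE 0.06) and 0.32 (SE 0.08) in PL-NAc and PL-BLA in the authors' deposited tables. Flna, the actin crosslinker filamin A, was lower in all 3, at -1.31 (SE 0.40) in PL-NAc, -1.73 (SE 0.28) in PL-BLA and -1.54 (SE 0.37) in PL-VTA in the authors' deposited tables.

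Lrmp and Mrvi1, which encode related membrane proteins that act on HCN4 gating, were scarce, with means between 10.8 and 31.4 normalized counts. Lrmp was -1.38 (SE 0.43) in PL-NAc and -1.40 (SE 0.41) in PL-BLA, and Mrvi1 -1.96 (SE 0.44) in PL-NAc, in the authors' deposited tables. Vapb, a paralog of Vapa, was 0.26 (SE 0.10) in PL-NAc and -0.59 (SE 0.18) in PL-VTA in the authors' deposited tables. Its difference of 0.85 (SE 0.20, adjusted p 0.00198, Wald z with Benjamini-Hochberg) was the 1 that passed among 11 genes for PL-NAc minus PL-VTA, and none passed for the other pairs.

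**Figure D5:**
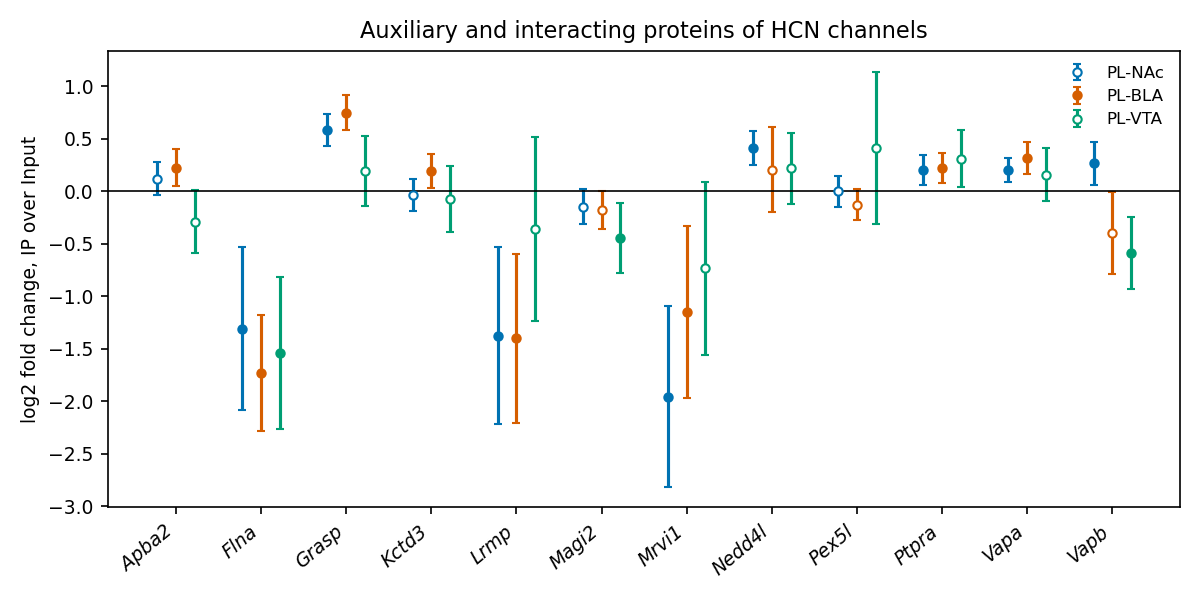
Log2 fold change of IP over Input (points) with 95% intervals (bars) for Pex5l and 11 other genes whose proteins bind or regulate HCN channels; filled points passed at an adjusted p under 0.05. Grasp is filled over 0 in PL-NAc and PL-BLA, Flna is filled under 0 in all 3 projections, and Pex5l is open in all 3.

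Other channels with a cyclic nucleotide-binding fold, the Cng and Kcnh families, had 0 higher and 4 lower of 10 in the IP of PL-NAc, 1 higher and 3 lower of 10 in PL-BLA, and 0 higher and 2 lower of 8 in PL-VTA. Their medians were -0.40, -0.13 and -0.31. Of all tested genes 43.1%, 41% and 21.5% were called in the same order, so these counts are no result about these families. Kcnh7, of the Erg potassium channels, was -0.56 (SE 0.12) in PL-NAc and -0.70 (SE 0.11) in PL-BLA in the authors' deposited tables. Kcnh1, of the Eag channels, was -0.007 (SE 0.10) in PL-NAc, 0.16 (SE 0.09) in PL-BLA and -0.88 (SE 0.19) in PL-VTA in the authors' deposited tables. It differed by 1.05 (SE 0.21, adjusted p 5.1e-05, Wald z with Benjamini-Hochberg) between PL-BLA and PL-VTA. Between PL-NAc and PL-VTA it differed by 0.88 (SE 0.21, adjusted p 0.00232, same test).

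The adenylyl cyclases, which make the cyclic AMP that HCN channels bind, had 2 higher and 2 lower of 10 in PL-NAc, 2 and 2 of 9 in PL-BLA, and 1 and 1 of 8 in PL-VTA. Of all tested genes 43.1%, 41% and 21.5% were called in the same order, so these counts are no result about the family. Adcy1, a calmodulin-stimulated form of cortex and hippocampus, was lower in all 3, at -0.41 (SE 0.07) in PL-NAc, -0.81 (SE 0.08) in PL-BLA and -0.50 (SE 0.14) in PL-VTA in the authors' deposited tables. Adcy3 was higher in all 3, at 0.50 (SE 0.10), 0.48 (SE 0.11) and 0.64 (SE 0.19) in the same order in the authors' deposited tables. Adcy7 was higher at 1.40 (SE 0.25) in PL-NAc and 1.59 (SE 0.23) in PL-BLA, and was not called in PL-VTA at 0.34 (SE 0.42), in the authors' deposited values. Adcy5, the main form of the striatum, was -0.42 (SE 0.10) in PL-NAc and -1.03 (SE 0.10) in PL-BLA in the authors' deposited tables, a difference of 0.61 (SE 0.14, adjusted p 0.00136, Wald z with Benjamini-Hochberg).

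Likeness to each member was measured as the Euclidean distance over its 3 log2 fold changes, 1 for each projection, among 11936 or 11937 other genes with a mean of at least 50 in every table. Closest to Hcn2 were Rcor3, Dph3 and Nucks1, at distances of 0.0275, 0.0364 and 0.0505. For Hcn3 they were Lrfn2, Lancl2 and Tmem116, at 0.0288, 0.0773 and 0.0815. Arnt2, Plxdc2 and Gnai3 were nearest to Hcn4, at 0.0222, 0.0432 and 0.0516, and Osbpl8, Ndufaf4 and 1110059E24Rik to Pex5l, at 0.0477, 0.0640 and 0.0657. All these distances are smaller than the SE of a single fold change of the member in question, so the order among near genes is within error.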

How the data were processed

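The submitters' processing notes name STAR 2.3, featureCounts and DESeq2, and the builds mm10 and GRCm38. The annotation release, strand setting and model are not stated in them. Library kits were SMARTer Ultra Low RNA and Nextera XT, per the labels' protocols. The 3 deposited tables hold, per the file headers, the authors' mean normalized count (a signal per gene, averaged over the libraries of a comparison), log2 fold change with its standard error, Wald statistic (a score), p-value and adjusted p-value. The deposited statistic equalled fold change over SE, and recomputing the deposited adjusted p gave the Benjamini-Hochberg value. The sign was read as IP over Input because glial transcripts were negative. Genes with a single read had fold changes of -0.03 or -0.04, so the deposited log2 values appear shrunken. The levels, intervals and tests derived from them take over any such shrinkage.

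Mean normalized counts summed to 15437849, 16347808 and 16520414 (PL-NAc, PL-BLA, PL-VTA). Among genes whose mean reached 50, the median SE was 0.124, 0.129 and 0.219.

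Differences between projections, which share no library, were tested with a two-sided Wald z on the deposited values, and all 3 together with Cochran Q, each adjusted over all genes with an adjusted p in the tables compared (numpy 2.4.6, scipy 1.17.1). Both tests were checked on simulated data, with 200 genes of small SE changed in PL-NAc alone. That change was larger than any difference seen for the 4 genes. The check thus gives no measure of power for differences of their size or for their larger SEs. A count model had been planned in case counts were present. Exon and coding lengths came from GENCODE M21 by gene ID. The alternatives are given in the closing section. The named genes are the members, up to 4 called genes with the smallest adjusted p per list and projection, and the 3 nearest genes to each member. Members and lists were chosen with earlier results of these data known. Not every gene in the tables that the rule allows is reported here.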

Additional observations from a re-analysis of the deposited data

How the results depend on the processing

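Of 117 values of the 4 genes under the alternatives, 112 kept their side of the threshold, 2 lost a call and 3 gained one, and none reversed. The 5 that changed were Hcn3 and Pex5l under centring, given with their results. Only 4 of the 12 IP against Input values of the members, and none of their differences, were called at 0.05, so few calls could be lost. The 2 lost were both calls of Hcn3, under centring on the excitatory markers. Hcn4 lay under the minimum mean of 50 and has no value there. At an adjusted p under 0.01 the counts of all genes were 1099 higher in PL-VTA, 170, 331 and 470 differing for PL-NAc minus PL-BLA, PL-NAc minus PL-VTA and PL-BLA minus PL-VTA, and 585 across the 3 projections, against 1702, 270, 519, 712 and 881 at 0.05. Centring on the excitatory markers shifted all fold changes down by 0.52, 0.46 and 0.16 in PL-NAc, PL-BLA and PL-VTA. It then left 656 genes higher and 10672 lower in PL-NAc (5.79% of calls higher, against 49.6%), 700 and 9505 in PL-BLA (6.86% against 50.7%), and 896 higher in PL-VTA (28.3% against 51.2%). It gave 2383 differences for PL-NAc minus PL-VTA (5.46% higher in PL-NAc, against 42.4%), 1540 for PL-BLA minus PL-VTA (11.4% against 50.7%) and 2194 across the 3, and for PL-NAc minus PL-BLA 19.8% against 34.1% of differences were higher in PL-NAc. The shift itself is what moves these counts, and it was treated as free of error. No paired analysis was possible because the tables carry no value per library, and leaving out single libraries was not run for the same reason. The SE of Hcn4 was 0.36, 0.35 and 0.45 in PL-NAc, PL-BLA and PL-VTA; the part of depth and of library number in these SEs was not tested.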
